A study of Rattus norvegicus with 4 samples.

Results

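Hypoxia-inducible factors (HIFs), the prolyl hydroxylases that control them and 4 of their target genes were followed in cultured rat aortic smooth muscle cells treated with interleukin-1 beta (IL-1b). The 10 genes were Hif1a, Epas1, Arnt, Egln1, Egln2, Egln3, Adm, Car9, Hilpda and Ankrd37. They were taken by symbol, from probe sets that the platform annotation gives exactly 1 gene, which found 12 of the 31099 probe sets and 10 of the 14217 genes named on the array. No measured value enters this rule, but the genes were chosen with results of the same comparison known. Their differences are therefore given as descriptions, with no p-value.

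The study asked how IL-1b, a pro-inflammatory cytokine, alters messenger RNA in smooth muscle cells of the aorta. All cells came from Sprague-Dawley rats and were kept for 5 days in medium with 10% serum, then for 3 days without serum. The treatment then lasted 24 hours, with IL-1b at 2.5 ng/mL in 2 samples and vehicle, 0.1% bovine serum albumin (BSA), in the other 2 samples. Samples are numbered within a group, but no label names a separate culture or animal, so errors and p-values cover only the spread among these samples, possibly a technical one. The labels give no oxygen level.

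A HIF is a dimer of an alpha subunit, such as HIF-1 alpha (Hif1a) or HIF-2 alpha (Epas1), with the shared beta subunit ARNT. In the presence of oxygen the prolyl hydroxylases (Egln1, Egln2 and Egln3) mark the alpha subunit for capture by the von Hippel-Lindau protein and for destruction. When oxygen is low the alpha subunit persists, and the dimer binds a short core motif in DNA and raises genes of glucose use, pH control, vessel growth and vessel tone. This control acts largely on protein, which the arrays do not measure, and inflammatory signalling through NF-kB is known to raise Hif1a transcription.

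The 10 genes divided into 3 that were much higher with IL-1b, 3 that were much lower and 4 that did not pass the threshold. Egln3, Epas1 and Adm were higher, and the target genes Car9, Hilpda and Ankrd37 were lower. The hydroxylase genes Egln1 and Egln2 and the subunit genes Hif1a and Arnt did not pass. Calls came from one limma fit over all probe sets bright enough to be tested, at an adjusted p of 0.05. In that fit 15.3% of 10000 genes passed, 7.19% higher and 8.13% lower, and of single probe sets 13.4% passed, 6.32% higher and 7.11% lower. With genes chosen on this comparison, nothing is read from the 6 of 10 that passed.

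One array stood apart. On IL-1b replicate 1 the bacterial hybridisation controls, added in equal amounts to every sample, read 3.50 times their vehicle mean, against 0.952 times on IL-1b replicate 2. The background of an array was set at the 95th percentile of its 27 probe sets for bacterial control transcripts. It was 76.7 and 18.8 on IL-1b replicates 1 and 2, against 29.4 and 26.9 on vehicle replicates 1 and 2. Results are given with and without IL-1b replicate 1 where leaving it out changed a call or moved a value by more than 1.5 times. The smooth muscle label was checked with 9 marker genes, all above background on all 4 arrays. Their summed intensity was 25636 and 18423 on the IL-1b arrays and 53749 and 54029 on the vehicle arrays, and 7 of the 9 passed as lower with IL-1b. Fewer cells of a type and less RNA per cell cannot be told apart in such samples.

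Because the 3 genes that were lower are textbook HIF targets, the promoters are shown first. The core HIF motif was searched as ACGTG and as GCGTG on both strands, from 250 bases before to 50 bases after the annotated gene start (RefSeq, GRCr8), and all 10 genes had such a window. Capitals mark the core in either orientation. The windows of Ankrd37, Hilpda and Car9, the genes that were lower, and of Egln3, the gene with the largest increase of the 10, read 5′ to 3′ on the strand of the gene:
Ankrd37, chr16:53001257-53001556, plus strand: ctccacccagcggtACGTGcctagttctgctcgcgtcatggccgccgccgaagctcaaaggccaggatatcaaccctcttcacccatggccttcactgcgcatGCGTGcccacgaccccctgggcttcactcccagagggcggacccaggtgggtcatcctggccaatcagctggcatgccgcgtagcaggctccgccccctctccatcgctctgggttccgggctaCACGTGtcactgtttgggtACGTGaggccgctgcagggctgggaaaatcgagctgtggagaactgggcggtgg
Hilpda, chr4:58836213-58836512, plus strand: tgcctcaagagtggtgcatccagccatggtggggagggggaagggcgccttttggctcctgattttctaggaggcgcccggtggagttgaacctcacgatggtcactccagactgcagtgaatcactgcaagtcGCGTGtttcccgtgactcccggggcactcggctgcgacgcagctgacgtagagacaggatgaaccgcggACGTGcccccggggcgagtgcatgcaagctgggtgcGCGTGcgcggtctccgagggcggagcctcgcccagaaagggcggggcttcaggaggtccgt
Car9, chr5:62558774-62559073, plus strand: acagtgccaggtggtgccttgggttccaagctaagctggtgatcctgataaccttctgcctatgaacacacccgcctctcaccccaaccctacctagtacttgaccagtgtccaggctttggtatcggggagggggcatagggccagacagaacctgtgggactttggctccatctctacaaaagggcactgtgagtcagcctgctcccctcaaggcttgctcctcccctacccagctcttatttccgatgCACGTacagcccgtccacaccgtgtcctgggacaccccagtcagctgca
Egln3, chr6:77410966-77411265, minus strand: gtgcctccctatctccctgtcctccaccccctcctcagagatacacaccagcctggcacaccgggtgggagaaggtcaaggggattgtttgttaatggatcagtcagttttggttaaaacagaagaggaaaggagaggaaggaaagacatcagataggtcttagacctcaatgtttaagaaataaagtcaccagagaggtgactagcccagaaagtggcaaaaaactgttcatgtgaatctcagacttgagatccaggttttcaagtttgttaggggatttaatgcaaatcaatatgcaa

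Ankrd37 held 5 matches, of which a pair overlapped in a CACGTG that reads as the core on both strands. Its match nearest the start covered positions -4 to 1, where 1 is the first base of the transcript. Hilpda held 3 matches, at -116 to -112, -47 to -43 and -11 to -7. Car9 held 1 match, at 2 to 6 on the opposite strand. The Egln3 window held 0, which says only that these letters are not in this window.

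Across the 10 genes, 6 windows held at least 1 core, against 41.6% of 33469 promoter windows of the same length. Besides the 3 genes that were lower these were Hif1a with 3 matches, Egln1 with 2 and Arnt with 1. The windows of Epas1, Egln2, Egln3 and Adm held none. The share over all windows was not matched for GC content, and both forms of the core are rich in G and C. All 10 windows but that of Egln3 (44.7%) were above the median GC content of 51.7%, up to 84.7% for Egln1. No excess of matches is therefore read from these shares. A match is a description of the sequence and not a bound site.

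**Figure D1:**
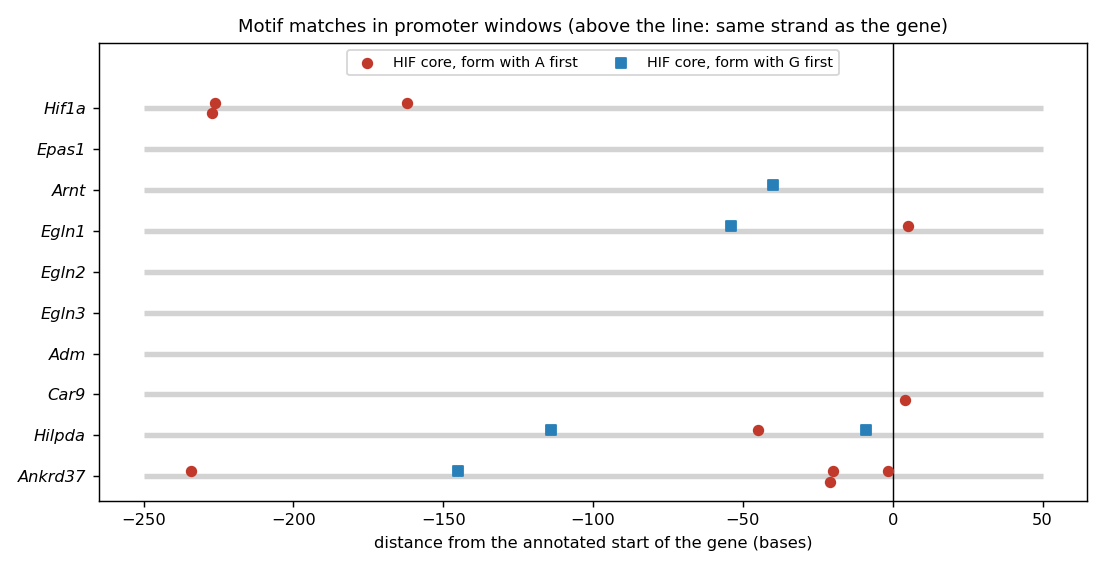
Matches to the HIF core motif in the promoter window of each of the 10 genes, by distance in bases from the annotated start (x axis). Points above a line lie on the strand of the gene and points below on the opposite strand. Ankrd37 holds 5 core matches, Hilpda 3 and Car9 1, and the windows of Epas1, Egln2, Egln3 and Adm hold none.

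The first role to describe is that of the alpha subunits. Hif1a had intensities of 2354 and 2924 on IL-1b replicates 1 and 2, against 2151 and 1901 on vehicle replicates 1 and 2. The IL-1b arrays lay above the vehicle arrays, but the gap was narrow beside the spread within the groups. The log2 fold change was 0.37 ± 0.17 (SE, n = 2 in each group), computed on log2 of intensity plus an offset of 5.49 units, and it did not pass the threshold. Without IL-1b replicate 1 it was 0.53, and over all single arrays left out it lay between 0.22 and 0.53. Each such fit leaves 1 array in a group, so no gain of a call is read from it.

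Epas1 encodes HIF-2 alpha, the alpha subunit best known from endothelium and from the control of erythropoietin. At its brighter probe set it had intensities of 383 and 430 on the IL-1b arrays, against 59.6 and 58.1 on the vehicle arrays. The groups were far apart and the arrays within each were close. The log2 fold change was 2.68 ± 0.25 (SE, n = 2), or 6.40-fold, and it ranked 124 of 10000 genes from the largest increase down.

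The second probe set of Epas1 was too dim to be tested. It read 87.6 and 88.9 on the IL-1b arrays, against 8.55 and 7.69 on the vehicle arrays, both below background. Both probe sets therefore showed the same order of the groups, and the second gave at least a 3.14-fold higher level with IL-1b. Such bounds set the geometric mean of the brighter group against the higher of background and the measured value on each array of the dimmer group.

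Since endothelial cells are rich in Epas1, endothelial markers were read beside it. Of 7 marker genes, 1 and 4 were above background on IL-1b replicates 1 and 2, and 3 on each vehicle array. Pecam1, Vwf and Tie1 were below background on all 4 arrays. Cdh5, also on the list, had no probe set with a single symbol. The brighter probe set of Kdr, a receptor for vascular endothelial growth factor, read 54.0 and 36.1 on the IL-1b arrays, against 5.16 and 5.64 on the vehicle arrays. Only the IL-1b replicate 2 value of Kdr was above background. No bound is given for Kdr, since its other IL-1b value cannot be told from background. Egfl7 was above background on all 4 arrays, and it did not pass the threshold, nor did Tek or Esam. The second probe set of Egfl7 read 293 and 113 on the IL-1b arrays, against 82.3 and 99.0 on the vehicle arrays, and did not pass. The summed intensity of the 7 was 435 and 285 on the IL-1b arrays and 258 and 318 on the vehicle arrays. Of 9 macrophage markers, 3 and 4 were above background on the IL-1b arrays and 2 on each vehicle array, with summed intensities of 1084 and 1071 with IL-1b against 754 and 688 with vehicle. Cd14 made up most of these sums and did not pass the threshold. Cd68 read 40.2 and 32.5 on the IL-1b arrays, against 10.8 and 5.55 on the vehicle arrays, and only its IL-1b replicate 2 value was above background. No bound is given for Cd68, for the same reason as for Kdr. Aif1 read 89.1 and 12.1 with IL-1b against 21.0 and 25.4 with vehicle, so its groups overlapped. Csf1r read 16.7 and 28.8 with IL-1b against 55.5 and 49.8 with vehicle, and was too dim to be tested. Ptprc, at its brighter probe set, was above background only on IL-1b replicate 1, at 94.9. Adgre1 was above background only on IL-1b replicate 2, at 29.3. The groups overlapped for both genes. Itgam, Cd163 and C1qa were below background on all 4 arrays. The part of endothelial or macrophage transcripts in the results was not tested.

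Arnt, the shared beta subunit, read 78.9 and 173 on IL-1b replicates 1 and 2, against 38.5 and 57.6 on the vehicle arrays. The groups did not overlap, but the IL-1b arrays differed from each other by more than the IL-1b replicate 1 array differed from vehicle. On IL-1b replicate 1 the value was close to the background of 76.7. A log2 fold change of 1.22 ± 0.51 did not pass, and it was 1.76 without IL-1b replicate 1, a fit that leaves 1 IL-1b array. Without IL-1b replicate 2 it was 0.68.

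Among the prolyl hydroxylases, only Egln3 passed the threshold. Egln3 encodes PHD3, the member of the family whose transcript is itself a strong HIF target. It read 4419 and 3736 on the IL-1b arrays, against 26.0 and 31.6 on the vehicle arrays, where 1 of the 2 values was above background. In vehicle-treated cells the transcript was thus at the limit of detection, and in IL-1b-treated cells it was bright on both arrays.

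The mean intensity of Egln3 was 4077 ± 483 with IL-1b and 28.8 ± 3.93 with vehicle (SD, n = 2). The log2 fold change was 6.89 ± 0.19 (SE), 119-fold on the offset scale, and ranked 12 of 10000 genes. It stayed between 6.77 and 7.02 with any single array left out. All of these values rest on vehicle levels at the limit of detection, with vehicle replicate 1 below background. The gene entered the test through its IL-1b arrays, with a mean log2 value of 8.54 over all arrays against a limit of 5.37.

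Egln1 encodes PHD2, the main oxygen sensor among these enzymes, and is also a HIF target. It read 472 and 481 on the IL-1b arrays, against 411 and 434 on the vehicle arrays, a log2 fold change of 0.17 ± 0.16 that did not pass. A second, dim probe set read below background on all 4 arrays and was not tested. Egln2 encodes PHD1, which is not known as a hypoxia-induced transcript. It read 601 and 762 on the IL-1b arrays, against 607 and 633 on the vehicle arrays, so the groups overlapped (log2 fold change 0.12 ± 0.17). With each array centred on its median, the signs of Egln1 and Egln2 turned, at -0.03 and -0.08.

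**Figure D2:**
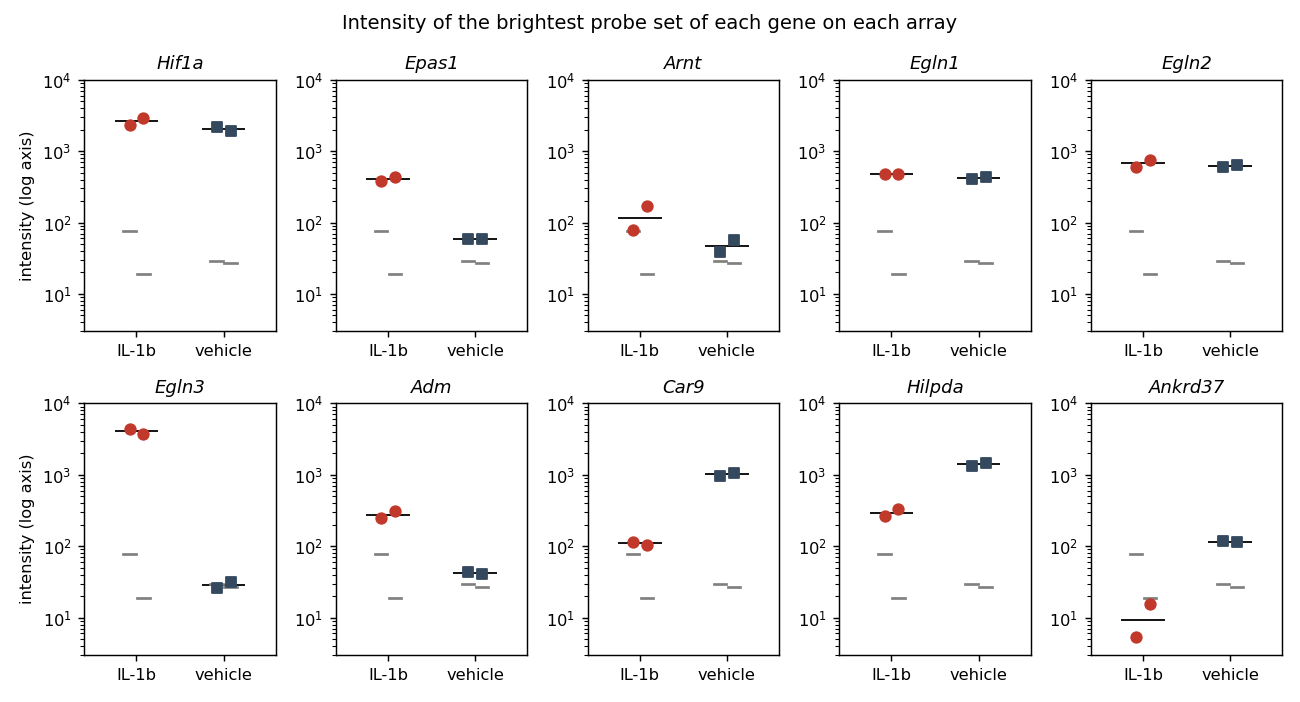
Intensity of the brightest probe set of each of the 10 genes on each array (y axis, logarithmic), with the IL-1b arrays as circles on the left and the vehicle arrays as squares on the right. Black lines are geometric means of 2 arrays and grey dashes mark the background of each array. Egln3 reads 4419 and 3736 with IL-1b against 26.0 and 31.6 with vehicle, and Ankrd37 lies below background on both IL-1b arrays.

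The 4 target genes moved in opposite directions. Adm encodes adrenomedullin, a vasodilator peptide made by vascular cells, and was the target that was higher. It read 251 and 307 on the IL-1b arrays, against 42.9 and 40.4 on the vehicle arrays. All 4 values were above background, and the groups were well apart. The log2 fold change was 2.59 ± 0.32 (SE, n = 2), or 6.001-fold, and ranked 132 of 10000 genes. Epas1 and Adm, neighbours in the order of differences at 2.68 and 2.59, did not differ beyond their errors.

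Car9 encodes carbonic anhydrase 9, a membrane enzyme that regulates pH outside the cell and is a widely used marker of HIF-1 activity. It read 116 and 105 on the IL-1b arrays, against 970 and 1069 on the vehicle arrays. The transcript was bright in serum-starved cells with vehicle and stayed above background on both IL-1b arrays. The mean intensity was 111 ± 7.83 with IL-1b and 1019 ± 70.0 with vehicle (SD, n = 2). Its log2 fold change was -3.14 ± 0.18 (SE), 8.82-fold lower, and ranked 49 of 10000 genes from the largest decrease up. It lay between -3.21 and -3.07 with any single array left out.

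Hilpda encodes a small lipid droplet protein that inhibits the lipase Pnpla2. It read 263 and 327 on the IL-1b arrays, against 1343 and 1461 on the vehicle arrays. Both IL-1b values were far below both vehicle values. Hilpda had a log2 fold change of -2.24 ± 0.17 (SE, n = 2), 4.71-fold lower, and ranked 158 of 10000 from the largest decrease.

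Ankrd37, an ankyrin repeat protein known mainly as a HIF-1 target, read 5.36 and 15.6 on IL-1b replicates 1 and 2, against 118 and 113 on the vehicle arrays. Both IL-1b values were below background, so only a bound can be given, and the level with IL-1b was at least 3.04-fold lower. The bound follows the background of the IL-1b arrays, and was 6.13-fold without IL-1b replicate 1 and 1.505-fold without IL-1b replicate 2. The fitted log2 fold change of -3.00 ± 0.69 rests on those values below background. The gene entered the test through its vehicle arrays, with a mean log2 value of 5.42 against a limit of 5.37. Without vehicle replicate 1 or vehicle replicate 2 it did not pass, at log2 fold changes of -2.97 and -3.03.

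Like these 3 genes, 7 of the 9 smooth muscle markers passed as lower with IL-1b. Between the IL-1b arrays the orders differed. The summed markers and Car9 read lower on IL-1b replicate 2. Hilpda read lower on IL-1b replicate 1, and Ankrd37 was below background on both, so it gives no order. With 2 arrays of unlike background, nothing is read from these orders. Acta2, smooth muscle actin, had a log2 fold change of -1.65 and Cnn1, calponin, of -2.90. Of the 9 markers, Lmod1 at -3.54 had the largest decrease. Des and Tpm2, at 0.32 and -0.62, did not pass. Whether the change in these markers bears on Car9, Hilpda or Ankrd37 was not tested.

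**Figure D3:**
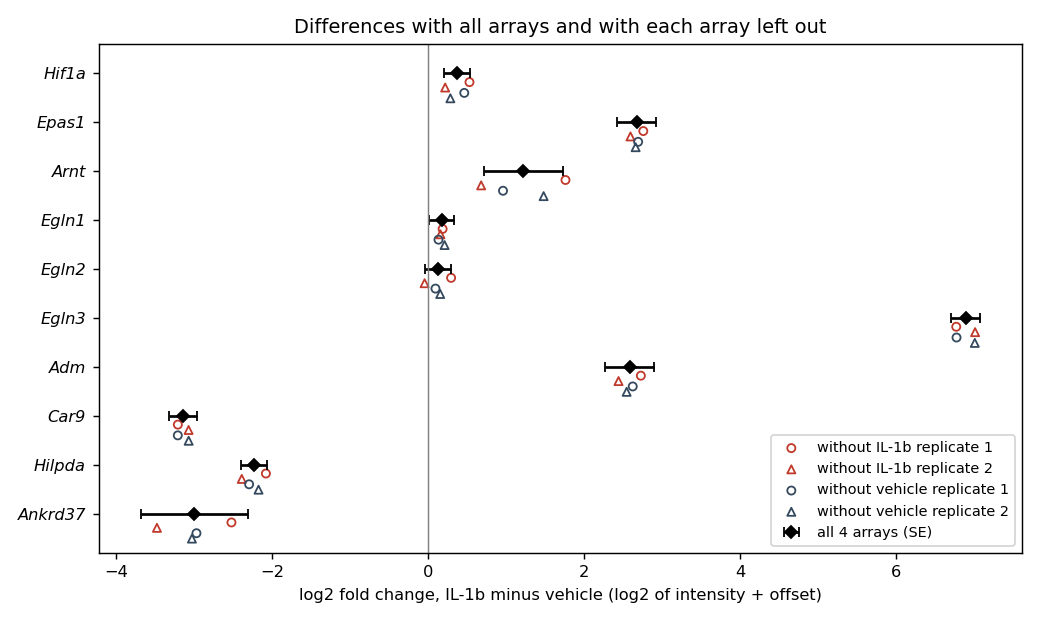
Log2 fold change of each of the 10 genes, IL-1b minus vehicle (x axis, log2 of intensity plus offset). Diamonds with bars are the fit to all 4 arrays with its SE, and open symbols are fits with 1 array left out. Egln3, Epas1 and Adm stay above 2 and Car9, Hilpda and Ankrd37 below -2 in all of these fits, while Egln2 crosses 0.

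The other genes of the pathway were taken from 3 lists, and are set against the 15.3% of all genes that passed and the median log2 fold change of -0.01 over all genes. The lists too were drawn up with earlier results of these data known. Their counts and p-values are therefore descriptions, and no excess over all genes is read from them. The first list holds regulators of HIF stability and activity. Of 14 genes 11 were tested, and 2 rose, 0 fell and 9 did not pass, with a median log2 fold change of 0.18. At an unadjusted limma p under 0.05 the counts were also 2 and 0, where 1398 of 10000 genes were higher and 1592 lower. Arnt2, a relative of Arnt, read 311 and 203 on the IL-1b arrays, against 73.3 and 65.4 on the vehicle arrays (log2 fold change 1.78 ± 0.32, limma adjusted p = 0.012). Its second probe set read 122 and 3.61 on the IL-1b arrays, against 59.1 and 45.9 on the vehicle arrays, so the groups overlapped. The fit of -0.76 ± 1.20 did not pass and rests on an IL-1b replicate 2 value below background. The second probe set therefore cannot decide the direction. Arnt2 did not pass without the intensity trend (limma adjusted p = 0.051), and its lowest log2 fold change over the alternatives was 0.51.

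Cited2, which competes with HIF for its coactivators Ep300 and Crebbp, read 4126 and 4300 on the IL-1b arrays, against 2362 and 2292 on the vehicle arrays. This was a log2 fold change of 0.85 ± 0.14 (limma adjusted p = 0.0092), and its second probe set gave 0.99. Cited2 did not pass with median centring (adjusted p = 0.21) or without vehicle replicate 1 or 2 (adjusted p = 0.18 and 0.23). Vhl, the capture protein, read 756 and 749 with IL-1b against 816 and 716 with vehicle, and the groups overlapped. Hif1an, the asparaginyl hydroxylase, had no probe set with a single symbol. Without IL-1b replicate 1 there were 3 regulators higher and 1 lower, where 32.9% of all genes passed. Without IL-1b replicate 2 there were 4 higher and 1 lower, where 4996 of 10000 genes passed. Without vehicle replicate 1 or 2 there was 1 higher and 0 lower, where 8.89% and 8.24% of all genes passed. At an unadjusted limma p under 0.05 both of these fits had 2 regulators higher and 0 lower.

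In the list of glucose transport and glycolysis, 20 of 22 genes were tested, and 3 rose, 0 fell and 17 did not pass, with a median log2 fold change of 0.23. At an unadjusted limma p under 0.05, 6 were higher and 2 lower, where 1398 of 10000 genes were higher and 1592 lower. Pfkm, a phosphofructokinase, did not pass at its brightest probe set (-0.57), but its second passed as lower (-0.96, limma adjusted p = 0.029). The glucose transporter Slc2a1 read 1138 and 1058 on the IL-1b arrays, against 337 and 355 on the vehicle arrays (log2 fold change 1.65 ± 0.15, limma adjusted p = 6.3e-04). Slc2a3, a second glucose transporter, read 813 and 856 with IL-1b against 203 and 208 with vehicle (1.99 ± 0.16, limma adjusted p = 4.0e-04). The lactate exporter Slc16a3 rose by 0.95 ± 0.23 (limma adjusted p = 0.040), and did not pass without either vehicle array or with median centring (adjusted p = 0.24, 0.21 and 0.27).

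Among the enzymes of the pathway, Hk2, the inducible hexokinase, read 134 and 120 on the IL-1b arrays, against 43.1 and 40.02 on the vehicle arrays, and just missed the threshold (1.497 ± 0.40, limma adjusted p = 0.054). Pgk1 read 5229 and 4732 with IL-1b against 4372 and 4299 with vehicle (limma adjusted p = 0.46). Ldha, lactate dehydrogenase A, read 5318 and 3820 with IL-1b against 4991 and 4786 with vehicle, so the groups overlapped. Without IL-1b replicate 1 or IL-1b replicate 2 more genes of this list passed in each direction, as was so for all genes tested. Without either vehicle array fewer genes of this list passed, again as for all genes tested. Each such fit leaves 1 array in a group, so nothing is read from these counts.

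The third list holds other genes known to rise in hypoxia. Of 38 genes 31 were tested, and 9 rose, 4 fell and 18 did not pass, with a median log2 fold change of 0.06. At an unadjusted limma p under 0.05, 11 were higher and 9 lower, where 1398 of 10000 genes were higher and 1592 lower. With median centring 3 passed as higher and 1 as lower, where 337 of 10000 genes passed as higher and 616 as lower. Hmox1, heme oxygenase 1, read 1200 and 1292 on the IL-1b arrays, against 239 and 158 on the vehicle arrays (2.64 ± 0.22, limma adjusted p = 4.4e-04). Angptl4, an inhibitor of lipoprotein lipase, read 406 and 510 with IL-1b against 73.0 and 85.0 with vehicle (2.45 ± 0.24, limma adjusted p = 1.0e-03). Bhlhe40, a transcriptional repressor, read 292 and 464 with IL-1b against 67.8 and 76.0 with vehicle (2.27 ± 0.30, limma adjusted p = 0.0035). These 3 kept their call under all 16 alternative settings.

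Ddit4, an inhibitor of mTORC1 signalling, read 891 and 1732 on the IL-1b arrays, against 365 and 428 on the vehicle arrays (1.64 ± 0.30, limma adjusted p = 0.013). Vegfa, the main growth factor of vessels, read 487 and 554 with IL-1b against 171 and 239 with vehicle. Its second probe set read 281 and 289 with IL-1b against 88.3 and 66.5 with vehicle. The log2 fold changes of these probe sets were 1.34 and 1.82, and both rose. Vegfa did not pass with median centring or without the intensity trend (adjusted p = 0.10 and 0.068), nor did Ddit4 (adjusted p = 0.055 and 0.10). Bnip3, a mitophagy receptor and HIF-1 target, read 484 and 633 with IL-1b against 887 and 851 with vehicle, and missed the threshold (-0.65 ± 0.18, limma adjusted p = 0.057).

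The 4 genes of this list that fell were Plod2, Nampt, Higd1a and P4ha1, which are named here because of their values. Plod2, a collagen lysyl hydroxylase, read 2891 and 3119 on the IL-1b arrays, against 6094 and 6143 on the vehicle arrays (-1.03 ± 0.15, limma adjusted p = 0.0056). P4ha1, a collagen prolyl hydroxylase subunit, read 1857 and 1774 with IL-1b against 2867 and 2773 with vehicle (-0.63 ± 0.14, limma adjusted p = 0.026). Its partner form P4ha2, also named after its value was seen, moved the other way. It read 1363 and 1453 with IL-1b against 548 and 611 with vehicle (1.27 ± 0.15, limma adjusted p = 0.0018). With median centring neither P4ha1 nor P4ha2 passed (limma adjusted p = 0.12 and 0.10). Without the intensity trend neither Plod2 nor P4ha1 passed (limma adjusted p = 0.062 and 0.14). Without vehicle replicate 1 or 2 fewer genes of the list passed, as was so for all genes tested. None of the 4 that fell kept its call there, though each kept a negative log2 fold change. Without IL-1b replicate 1 or IL-1b replicate 2 more genes of the list passed in each direction, again as for all genes tested. Each such fit leaves 1 array in a group, so nothing is read from these counts.

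Dim genes of this list were not tested. Among them Rora, a nuclear receptor named after its values were seen, read 139 and 124 on the IL-1b arrays, against 6.86 and 3.12 on the vehicle arrays. Both vehicle values were below background, and the level with IL-1b was at least 4.68-fold higher. Epo, erythropoietin, was below background on all 4 arrays.

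**Figure D4:**
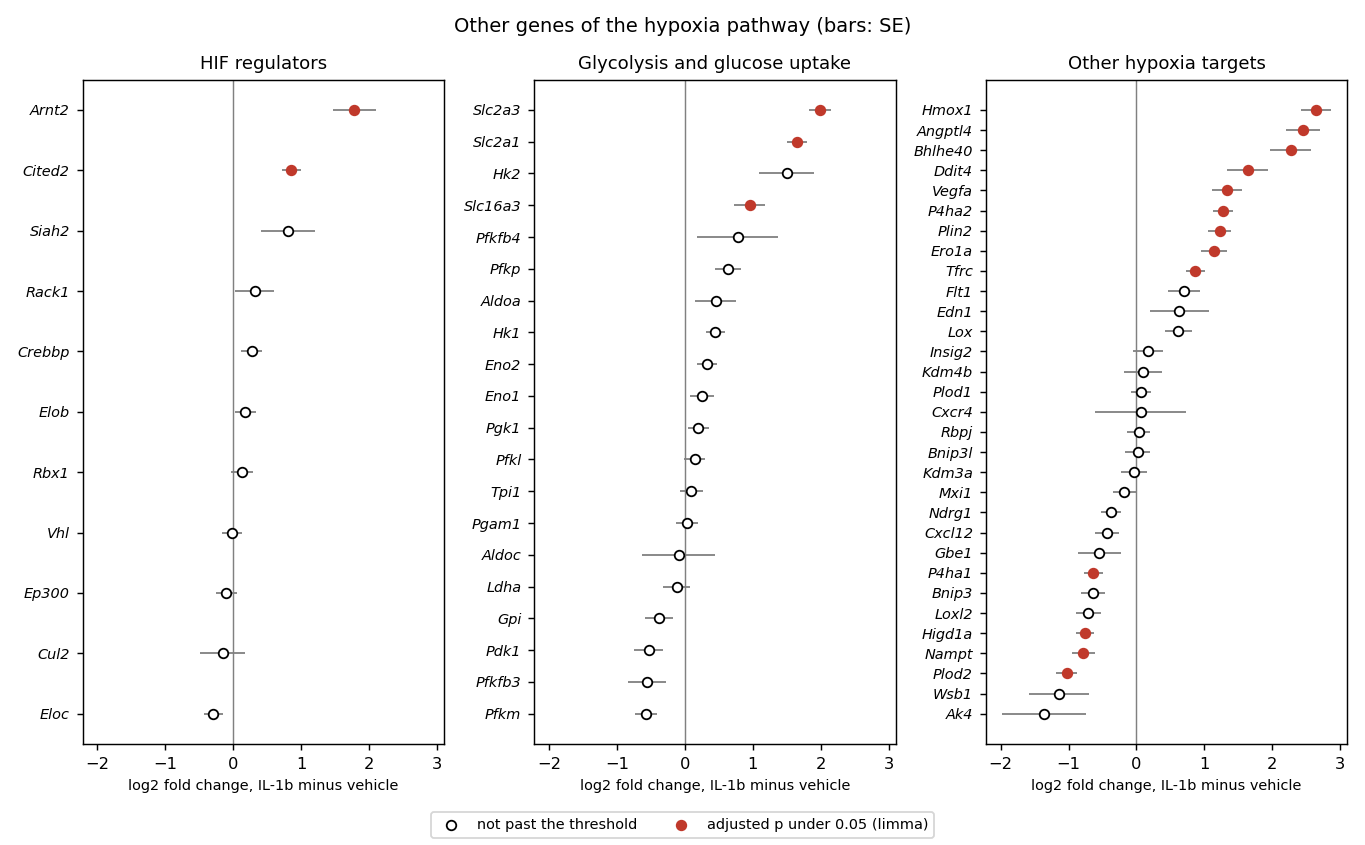
Log2 fold change, IL-1b minus vehicle, of the tested genes of 3 lists of the hypoxia pathway (x axis), each sorted by value, with SE as bars. Filled points passed an adjusted p of 0.05 in limma and open points did not. The lists hold 2, 3 and 9 genes that rose and 0, 0 and 4 that fell.

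The genes whose pattern over the 4 arrays was most like that of Egln3 were, in order, C3, Cd69, Il6, Ccl5 and Mmp3. The vehicle values of Cd69 and Mmp3 were below background on both arrays, so their distances and places rest on levels that were not measured. Likeness was the Euclidean distance between the 4 log2 values, each minus the vehicle mean, and ran from 0.60 to 0.85 for these genes. C3, complement component 3, had a log2 fold change of 7.03, against 6.89 for Egln3. The genes most like Car9 were Myh10, Fbxl22, Selenbp1, Spon2 and Greb1, at distances of 0.13 to 0.26. Greb1 was below background on both IL-1b arrays, and its distance has the same limit. Myh10, a non-muscle myosin heavy chain, read 690 and 596 on the IL-1b arrays, against 5564 and 5514 on the vehicle arrays. The measure takes in the size of the difference between groups and the spread of the arrays, and 4 arrays give it little power to set genes apart.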

How the data were processed

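Biotin-labelled RNA of 4 samples of rat aortic smooth muscle cells was measured on Affymetrix arrays of 1 colour, per the labels' protocols. The authors deposited 1 linear intensity for each probe set and array. The submitters' processing notes name MAS5, and no source used here gives its version or settings. With 2% of values trimmed at each end, all arrays had a mean of 250.1, so they had been scaled alike and no further normalization was applied. The table used here holds no detection calls.

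Before the log2 step each value was raised by 5.49, which is the 10th percentile over all arrays. This offset understates changes of dim genes. Left out were the 57 control probe sets and those whose mean log2 value was under the 40th percentile (5.37). A limma 3.58.1 fit in R 4.3.3 (lmFit, eBayes with an intensity trend) took in the other 18625 probe sets, without the replicate number. The fit had 2 residual degrees of freedom and 4.91 from the prior. P-values were adjusted by Benjamini-Hochberg over all probe sets. The platform annotation supplied the symbols: 20826 probe sets had 1 symbol, 436 several and 9780 were unlisted, and 99.7% of the first matched a current gene, with 0 symbols changed. A gene is its brightest probe set. Precision is limited by the number of arrays.

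The 10 genes and all lists were chosen with earlier results of these data known. The text names all 10 genes, from each pathway list up to 5 genes that passed and changed most, a few genes fixed by role, and the 5 genes nearest in pattern to the members with the largest increase and decrease. The background of control probe sets and the bounds were chosen after seeing the data. Alternatives covered the offset, scaling, filter, variance model, replicate block, probe set, call rule and each array left out. The fit was first tested on simulated arrays with known changes.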

Additional observations from a re-analysis of the deposited data

How the results depend on the processing

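Among the 10 genes, Egln3, Epas1, Adm, Car9 and Hilpda stayed past the threshold, in the same direction, under each alternative fit in which they were tested. As the genes were chosen with this comparison known, this describes the fits and is no support for the differences. Ankrd37 lost its call without vehicle replicate 1 or 2, and Hif1a and Arnt gained one without IL-1b replicate 1. Each such fit leaves 1 array in a group, so nothing is read from a call gained there, and the cause was not tested. Under the filter at the 60th percentile 7 of the 10 were tested and 4 called, where 1463 of 7727 genes passed. Arnt, Ankrd37 and Adm were not tested there. Egln1 turned to a log2 fold change of -0.033 and Egln2 to -0.080 with median centring. With 1 array left out Egln2 ran from -0.045 to 0.29, the lowest without IL-1b replicate 2 and the highest without IL-1b replicate 1. Median centring moved the median log2 fold change of all probe sets tested to -0.19, and quantile normalization to -0.03. With median centring 1634 probe sets and 953 genes passed, against 2503 and 1532 as deposited, with 562 of the probe sets higher and 1072 lower, against 1178 higher and 1325 lower as deposited. It left 1 regulator and 4 other hypoxia targets (3 higher, 1 lower). Without the intensity trend 963 probe sets, 576 genes, 0 regulators and 4 other targets passed. At an unadjusted limma p under 0.05 that fit had 3 regulators higher and 0 lower, where 1174 of 10000 genes were higher and 1270 lower. With the median of all probe sets of a gene 1 regulator and 5 glycolysis genes (4 higher, 1 lower) passed. At an adjusted p of 0.01 there were 1222 probe sets, 774 genes and 1 regulator, and with at least 2-fold 1 regulator. With each array left out in turn, the counts ran from 1357 to 8666 probe sets, 824 to 4996 genes, 5 to 8 of the 10 genes, 1 to 5 regulators, 2 to 12 glycolysis genes and 8 to 22 other targets. A lone array was then assumed to vary like the other group.

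With the replicate number as a block 3276 probe sets, 1928 of 10000 genes, 6 of the 10 genes and 5 glycolysis genes passed. The labels do not say that equal numbers share a culture, and the differences between replicates 1 and 2 correlated at 0.0912 between the groups over probe sets, so the numbers were not taken to pair the samples. Arnt lay near the background of 76.7 on IL-1b replicate 1, and Ankrd37 lay below background on both IL-1b arrays. The bound for Ankrd37 without each array in turn, added after seeing the data, ran from 1.505-fold to 6.13-fold.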
